A study of Mus musculus with 2 samples.

Results

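The genes described are the potassium channel subunits on the array, taken as every gene whose platform symbol, old or current, begins with Kcn. There were 77 such genes among the 23232 genes and unnamed probes of the array (16390 named genes), 76 of them by their current symbol and Kcnk10 through an older one. By role, 55 encode subunits that form a conducting pore, 8 encode electrically silent subunits that assemble with other pore subunits, and 14 encode accessory subunits or regulators. Heart RNA came from 3-month old male mice of L9 and L19, 2 independent lines that carry a human miR-143/145 transgene under the αMHC promoter (αMHC/miR-143/145TG, below TG), a promoter active in heart muscle cells. Their founders came from eggs of B6D2F1 mice, and the progeny were backcrossed to C57BL/6J. The control was heart RNA of 3-month old non-transgenic (NTG) mice. Each line was read on 1 Toray 3D-Gene Mouse Oligo chip 24 array on which Cy5 marked the NTG RNA and Cy3 the TG RNA, 1 mouse of each kind per array by the design text. The dyes were not swapped, so an effect of dye and an effect of the transgene cannot be told apart. The NTG RNA carries the same label on both arrays and was counted as 1 control sample read on each array, so the spread between NTG mice was not measured. Replicates below are the 2 TG lines.

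Potassium channels let potassium leave the heart muscle cell and thereby end the action potential and hold the resting potential. In mouse ventricle the fast transient outward current, carried by Kv4 pores with the accessory subunit KChIP2, and the delayed rectifiers do most of the repolarizing. Inward rectifiers set the resting potential, K-ATP channels couple it to the energy state of the cell, and two-pore channels carry background current.

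Of the 77 genes, 58 were above background in both channels of both arrays and had a log2 ratio of TG over NTG in each line. Among these, Kcnip2 was the only gene more than 1.5-fold above NTG in both lines, and Kcnk3 and Kcnj16 were the only ones lower by more than 1.5-fold in both. These counts were 1.72% and 3.45% of the 58 genes, against 5.21% and 3.03% of the 17482 genes and unnamed probes measured. Counting direction alone, 15 channel genes (25.9%) were above NTG in both lines and 30 (51.7%) below, against 35.5% and 38.4% of all genes measured, and 13 had opposite signs in the lines. The median of the mean log2 ratio was -0.18 over the 58 channel genes (-0.16 in L9 and -0.12 in L19) and -0.01 over all genes measured. The split between higher and lower differed with the background setting. After normexp correction with an offset of 50 it was 8 above and 42 below in both lines, against 45.1% and 39.5% of all genes measured. The median was then -0.10 over the channel genes and 0.02 over all genes, and 21 of the 58 mean ratios changed sign, 16 of them from above NTG to below. In the brighter 50% of all genes the median after normexp was 0.26, and 44 of the 58 channel genes were in the dimmer 50%. The shares over all genes were not matched for signal, and the part of signal in the split was not tested.

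The log2 ratios of the lines were tested against 0 with limma over all 17482 genes. No channel gene had an adjusted p under 0.05, and neither did any other gene of the array (0.0%), so no change is called below. The lowest adjusted p of the array in limma was 0.086. In simulated ratios with few changed genes this test called 0 of 251 changes of 4-fold. The lack of calls therefore does not show that genes were unchanged. At an unadjusted p under 0.05 there were 5 channel genes higher and 13 lower, and over all genes 2746 higher and 2521 lower. With a signal trend and robust estimation (below, the trend setting), limma called 3 channel genes higher (Kcnip2, Kcne1 and Kcna5) and 7 lower (Kcnk3, Kcnh2, Kcnd2, Kcnk5, Kcna7, Kcnj16 and Kcnv2). That was 5.17% and 12.1% of the 58, against 10.5% and 9.58% of all genes. Both TG readings lay above both NTG readings for 10 channel genes (17.2%) and below both for 24 (41.4%), against 27.7% and 30.2% of all genes.

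**Figure D1:**
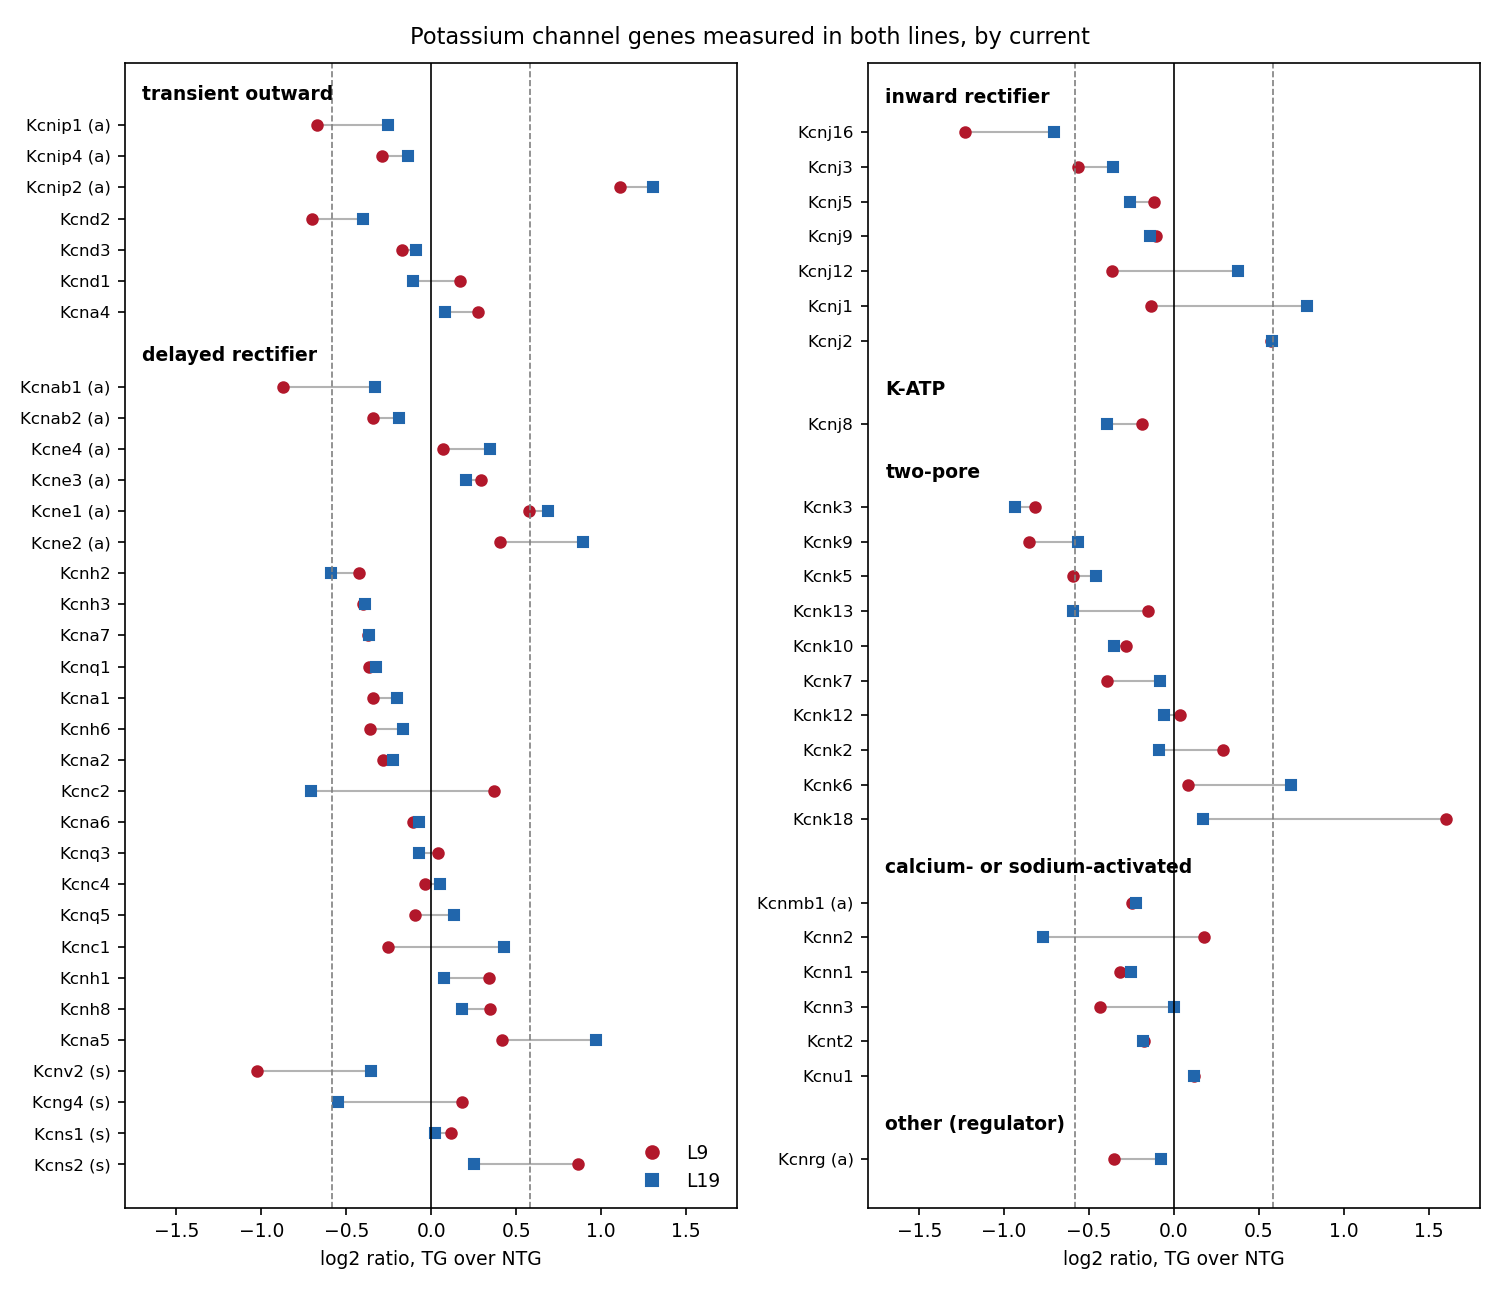
Log2 ratio of TG over NTG (x axis) for the 58 potassium channel genes measured in both lines, grouped by current, with circles for L9 and squares for L19 joined by a line for each gene. Accessory subunits are marked (a) and silent subunits (s), the rest form pores, and the dashed lines mark 1.5-fold. Kcnip2 lies at 1.11 and 1.30, most other genes lie between the dashed lines, and 21 of the 58 mean ratios have the other sign after normexp correction.

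Repeat readings of the NTG RNA give a technical spread. The SD of the difference between arrays in scaled log2 signal was 0.32 for NTG (20147 genes) and 0.41 for TG, from different mice (17632 genes). Most channel genes were dim. Only 14 of the 58 were among the brighter 50% of all genes measured, of which 2 (Kcnip2 and Kcne1) were above NTG in both lines, 10 below, and Kcnj12 and Kcnn2 of opposite sign. In the brighter 50% of all genes 37.7% were above and 41.7% below. Of the 10 channel genes below, 5 (Kcna1, Kcna7, Kcnip4, Kcnj8 and Kcnt2) had a mean above NTG after normexp correction. The median after normexp correction was 0.01 over these 14 channel genes and 0.26 over the brighter 50% of all genes. The blank spots averaged 19.1 in Cy5 on both arrays, and 85.2 (L9) and 72.6 (L19) in Cy3, so a channel gene with a scaled signal near 10 stood little above its blanks.

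The hearts differed in the markers of their cell types as well. Of 9 ventricular muscle markers 7 were below NTG in both lines (median log2 ratio -0.53, with Ryr2 at -0.80 and -0.78), while Mybpc3 was at 0.39 and 0.31. After normexp correction the median was -0.043, with Tnnt2 and Actn2 turned to 0.12 and 0.19. Myh6 went from -0.81 to -0.32 and Mybpc3 from 0.35 to 0.83. The brighter part of all genes measured had a median of 0.26 after normexp, against -0.01 before. The marker median, Tnnt2 and Actn2 lay below that 0.26. Tnnt2 was bright, with signals of 51495 (NTG) and 36544 (TG) in L9. The part of signal in these turns of sign was not tested. Of 9 fibroblast markers 8 were above NTG in both lines (median 0.65), led by Postn, a matrix protein of activated fibroblasts, with a mean of 2.43 ± 0.89 (SD, n = 2 lines). After normexp correction their median was 1.02. The medians were 0.37 for 6 atrial markers, which include the stress-responsive Nppa at 3.33 and 2.31, -0.26 for 8 endothelial markers, -0.09 for 9 markers of smooth muscle and pericytes, and -0.03 each for 5 markers of nerve and 6 of macrophages. Of 5 conduction tissue markers 2 were measured, Tbx3 at -0.99 in L9 and -0.47 in L19 and Cacna1g at 0.01 and -0.08. Isl1 was in no channel above background. In whole-heart RNA, fewer cells of a type and less RNA per cell cannot be told apart. The part of cell makeup in the channel ratios was not tested.

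In the transient outward current the main pore and its accessory subunit lay on opposite sides of NTG. Kcnip2 encodes KChIP2, which brings Kv4 channels to the cell surface and slows their inactivation. Its scaled signals (arbitrary units above the blank mean) were 228.8 (NTG) and 495.4 (TG) in L9 and 245.3 and 605.9 in L19. Both TG readings lay far above both NTG readings, which differed from each other by 0.10 on the log2 scale. Over genes of similar signal this difference had an SD of 0.16. TG was 2.17-fold NTG in L9 and 2.47-fold in L19, a mean log2 ratio of 1.21 ± 0.13 (SD, n = 2 lines) with an adjusted p of 0.086 in limma and 6.6e-04 in the trend setting. After normexp correction the ratio was 1.42 and after loess 1.20.

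Kcnd2 encodes Kv4.2, the main pore of the fast transient outward current in mouse ventricle. Its signals were 131.6 (NTG) and 80.8 (TG) in L9 and 139.7 and 105.6 in L19. Both TG readings lay below both NTG readings, at 61.4% of NTG in L9 and 75.6% in L19, a mean log2 ratio of -0.55 ± 0.21 (SD, n = 2 lines). In limma the adjusted p was 0.12, and 0.016 in the trend setting, and the ratio shrank to -0.14 after normexp correction. Kcnip2 and Kcnd2, partners in one channel, thus lay on opposite sides of NTG in both lines. Their ratios were not tested against each other.

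The start regions of these genes are shown because these partners lay on opposite sides of NTG. Each run holds the 250 bases before the annotated start and 50 from it, read 5′ to 3′ on the gene's strand, from the RefSeq promoter table of GRCm38.p6. Capitals mark GGGCGG, the GC box bound by Sp1. Kcnip2 lies at chr19:45816014-45816313 on the minus strand and Kcnd2 at chr6:21215096-21215395 on the plus strand.
Kcnip2: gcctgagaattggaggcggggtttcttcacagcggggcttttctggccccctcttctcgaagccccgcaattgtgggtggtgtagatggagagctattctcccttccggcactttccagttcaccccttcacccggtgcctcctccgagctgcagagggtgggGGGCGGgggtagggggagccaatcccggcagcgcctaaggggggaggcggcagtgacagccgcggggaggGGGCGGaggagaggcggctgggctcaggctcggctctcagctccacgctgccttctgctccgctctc
Kcnd2: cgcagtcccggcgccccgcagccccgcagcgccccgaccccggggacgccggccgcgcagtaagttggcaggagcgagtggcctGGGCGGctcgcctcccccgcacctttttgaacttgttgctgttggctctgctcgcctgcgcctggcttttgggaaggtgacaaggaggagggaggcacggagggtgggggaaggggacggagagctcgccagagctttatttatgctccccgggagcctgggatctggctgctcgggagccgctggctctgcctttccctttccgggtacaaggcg
Both were rich in G and C, at 67.0% for Kcnip2 and 68.7% for Kcnd2 against a median of 52.7% over all 32851 promoters of the table. Kcnip2 held 2 GC boxes, starting 87 and 17 bases before the start, and Kcnd2 held 1, starting 166 bases before it. All were on the strand shown. Neither held TATAAA, the TATA box, nor ACANNTGT, a motif bound by Iroquois factors. Both strands were searched, and the motifs did not overlap in these windows. Over all promoters 35.7% held GGGCGG, 13.6% TATAAA and 7.38% ACANNTGT, and among the 83 promoters of the 60 channel genes in the table the shares were 47.0%, 4.82% and 8.43%. A match is a description of the letters, not of a bound site.

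The other genes of the transient outward current lay closer to NTG. Kcnd3, for Kv4.3, had signals of 21.3 (NTG) and 18.9 (TG) in L9 and 23.2 and 21.7 in L19, a log2 ratio of -0.13 ± 0.05 (SD, n = 2 lines). Kcna4, for Kv1.4, the pore of the slow transient outward current, had 11.0 and 13.3 in L9 and 16.7 and 17.6 in L19, where the NTG readings were further apart than either pair, and its mean ratio of 0.18 became -0.09 after normexp correction. Both genes thus stayed within the spread of the readings. Kcnd1 (Kv4.1) was at 0.17 in L9 and -0.10 in L19. The other KChIP genes, Kcnip1 and Kcnip4, better known from neurons, were below NTG in both lines, at -0.46 and -0.21 on average (the latter at 0.02 after normexp correction), so Kcnip2 was the only gene of the 3 above NTG.

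Iroquois factors, which pattern the transient outward current across the mouse ventricular wall, were on the list of pathway genes outside the family. Irx5, known to repress Kcnd2 in mouse heart, had signals of 70.0 (NTG) and 107.3 (TG) in L9 and 81.3 and 97.1 in L19, a log2 ratio of 0.44 ± 0.25 (SD, n = 2 lines). Irx3, which acts in the ventricular conduction system, had 66.2 and 159.0 in L9 and 68.0 and 157.0 in L19, a log2 ratio of 1.24 ± 0.04. Its TG readings were well above both NTG readings, with an adjusted p of 0.086 in limma and 6.9e-04 in the trend setting. Irx4, a ventricular factor, was at 0.50 in L9 and -0.17 in L19. Of the 16 listed pathway genes 13 had a named probe and 11 were measured in both lines. Of these 11 genes, 4 were above NTG in both lines, 1 below and 6 of opposite sign, and Irx3 alone was past 1.5-fold in both.

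Of 16 measured pore genes of the delayed rectifiers 3 were above NTG in both lines, 8 below and 5 of opposite sign (median -0.13). All 4 KCNE genes on the array were above in both lines (median 0.44), but after normexp correction Kcne2 and Kcne3 were below on average and the median was 0.016. The difference between pores and KCNE genes was not tested. Kcnh2, for the ERG1 pore of the rapid delayed rectifier, had signals of 153.8 (NTG) and 114.4 (TG) in L9 and 171.6 and 114.2 in L19. The TG readings were nearly equal and both below NTG, at a log2 ratio of -0.51 ± 0.11 (SD, n = 2 lines), with an adjusted p of 0.11 in limma and 0.014 in the trend setting. Kcnq1, the pore of the slow delayed rectifier, had 53.2 and 41.4 in L9 and 53.9 and 42.9 in L19. Its log2 ratio was -0.35 ± 0.03, and the readings did not overlap. After normexp correction both genes were at about -0.10 (-0.10 for Kcnh2 and -0.09 for Kcnq1).

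Kcne1, which joins the Kcnq1 pore to give the slow delayed rectifier, was above NTG. Its signals were 38.5 (NTG) and 57.4 (TG) in L9 and 41.7 and 67.1 in L19, and both TG readings were above both NTG readings. TG was 1.49-fold NTG in L9, just under the 1.5-fold mark, and 1.61-fold in L19. The mean log2 ratio was 0.63 ± 0.08 (SD, n = 2 lines), 0.38 after normexp correction, with an adjusted p of 0.094 in limma and 0.012 in the trend setting. Kcne1 too was among the brighter 50% of all genes, whose median after normexp was 0.26. Pore and partner of this channel therefore also lay on opposite sides of NTG in both lines, as with Kcnd2 and Kcnip2, and here too the difference itself was not tested. The other KCNE genes, whose products modulate several Kv pores, were dimmer. Kcne2 was at 0.40 in L9 and 0.89 in L19 and at -0.03 after normexp correction. Kcne3 was at 0.29 and 0.20, with a mean of -0.18 after normexp and -0.02 after loess. Kcne4 was at 0.07 and 0.35, and at 0.07 on average after normexp.

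Kcna5 encodes Kv1.5, a pore of the slowly inactivating delayed rectifier of mouse ventricle. Its signals were 19.8 (NTG) and 26.5 (TG) in L9 and 26.0 and 51.0 in L19. The L9 reading exceeded the higher NTG reading only slightly, whereas L19 was at 1.96-fold of its own NTG reading. The mean log2 ratio was 0.69 ± 0.39 (SD, n = 2 lines), 0.23 after normexp correction, and the adjusted p was 0.12 in limma and 0.034 in the trend setting. The other 4 measured Kv1 delayed rectifier genes (Kcna1, Kcna2, Kcna6 and Kcna7) were below NTG in both lines, between -0.09 and -0.37, where Kcna1 and Kcna7 were at 0.08 and 0.01 after normexp correction.

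The Kv beta subunits bind Kv1 pores in the cytoplasm. Kcnab1 had signals of 16.04 (NTG) and 8.77 (TG) in L9 and 14.5 and 11.6 in L19, a log2 ratio of -0.60 ± 0.38 (SD, n = 2 lines), with both TG readings below both NTG readings. Kcnab2 had 53.9 and 42.6 in L9 and 63.8 and 55.9 in L19, a log2 ratio of -0.27 ± 0.11, and its L19 reading overlapped the L9 control. Of the silent subunits, which conduct only together with other pores, 4 of 8 were measured. Kcnv2 (Kv8.2) was at -1.03 in L9 and -0.36 in L19, Kcns2 at 0.86 and 0.25, Kcns1 near 0 in both, and Kcng4 of opposite sign. Kcns1 and Kcns2 were below NTG after normexp correction.

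**Figure D2:**
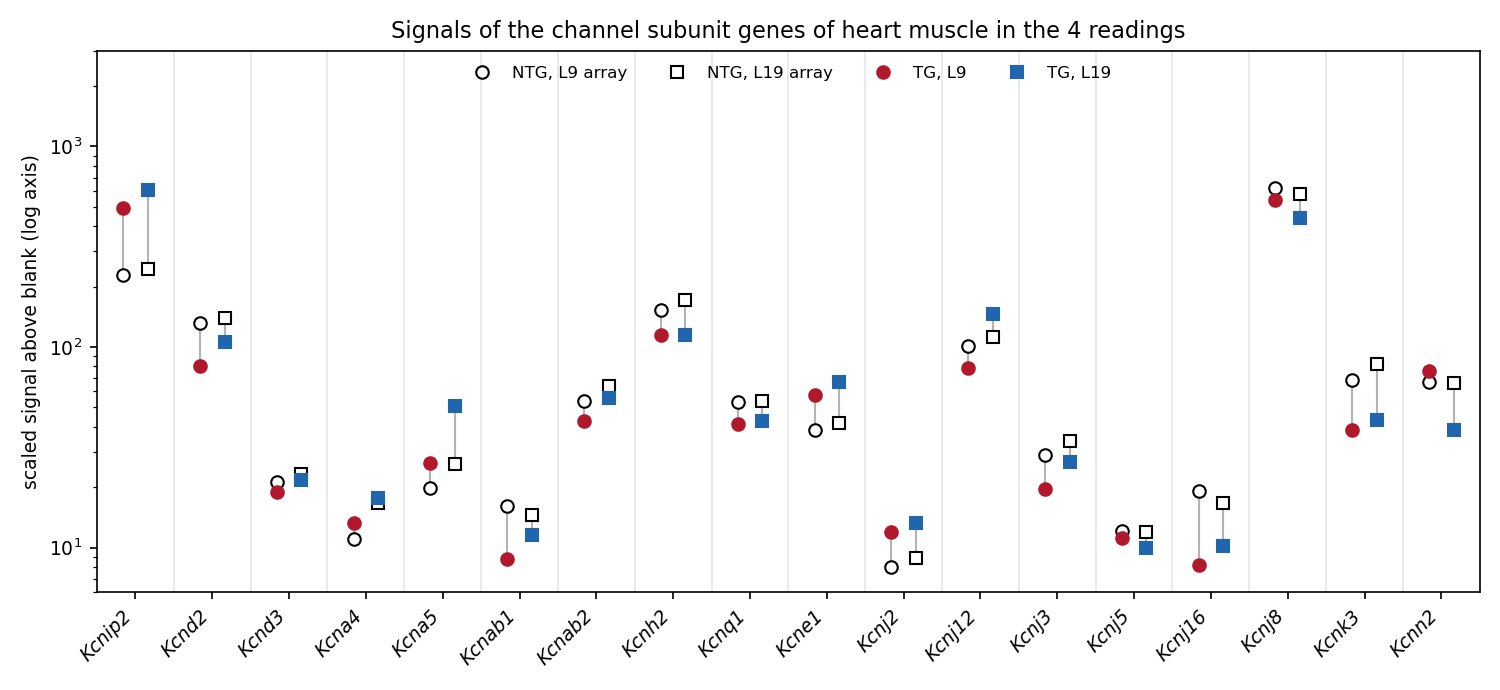
Scaled signal above the blank mean (y axis, log scale, arbitrary units) of 18 channel subunit genes of heart muscle in the 4 readings, with open symbols for NTG and filled symbols for TG, circles for the L9 array and squares for the L19 array. Heights compare readings within a gene, not genes, and grey lines join NTG and TG of one array. For Kcnip2 the filled symbols (495.4 and 605.9) stand above the open ones (228.8 and 245.3), and for Kcnk3 and Kcnj16 below them, while the order for Kcna4, Kcnj2 and Kcnj8 turns after normexp correction.

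The inward rectifiers differed from each other. Kcnj2 encodes Kir2.1, the main pore of the current that sets the resting potential of ventricular cells. Its signals were low, 7.99 (NTG) and 11.9 (TG) in L9 and 8.84 and 13.2 in L19, and the TG readings were above both NTG readings. The log2 ratio was 0.57 in L9 and 0.58 in L19, just under 1.5-fold in both, with a mean of -0.07 after normexp correction, so its direction is not settled. The difference between the NTG readings had an SD of 0.37 over genes of similar signal. Kcnj12, for Kir2.2, was brighter, with 100.7 and 78.1 in L9 and 112.5 and 146.1 in L19. Its log2 ratio was -0.37 in L9 and 0.38 in L19, so the lines lay on opposite sides and the mean was 0.01 ± 0.53 (SD, n = 2 lines).

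Kcnj16 encodes Kir5.1, a subunit that conducts mainly in joint channels with Kir4 pores and is best known from kidney and brain. Its signals were 19.2 (NTG) and 8.19 (TG) in L9 and 16.6 and 10.2 in L19, with both TG readings below both NTG readings. TG was at 42.7% of NTG in L9 and 61.4% in L19, a mean log2 ratio of -0.97 ± 0.37 (SD, n = 2 lines). In limma the adjusted p was 0.095, and 0.034 in the trend setting, and the ratio was -0.32 after normexp correction, inside 1.5-fold. Of its possible partners, Kcnj10 (Kir4.1) and Kcnj15 (Kir4.2) gave no ratio on either array.

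The acetylcholine-gated current of atrium and sinus node is carried by Kir3 pores. Kcnj3 (Kir3.1) had signals of 29.0 (NTG) and 19.6 (TG) in L9 and 34.1 and 26.7 in L19. Its log2 ratio was -0.46 ± 0.15 (SD, n = 2 lines) with no overlap of the readings. Its partner Kcnj5 (Kir3.4) had 12.1 and 11.2 in L9 and 11.9 and 9.94 in L19, a log2 ratio of -0.19 ± 0.10. The difference between the NTG readings had a larger SD, 0.31 over genes of similar signal. Kcnj9 was at -0.10 and -0.14. All 3 measured Kir3 genes were thus below NTG in both lines, and their means stayed below it after normexp and after loess. Of the 6 atrial markers 2 were above NTG in both lines, 2 below and 2 of opposite sign.

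Of the K-ATP channel, one pore gene was on the array. Kcnj8, for Kir6.1, had signals of 617.7 (NTG) and 541.2 (TG) in L9 and 579.0 and 440.2 in L19. The TG readings were below both NTG readings, at 87.6% of NTG in L9 and 76.0% in L19, a log2 ratio of -0.29 ± 0.14 (SD, n = 2 lines). It was at 0.15 after normexp correction and at -0.31 after loess. Kcnj8 was in the brighter part of all genes measured, whose median after normexp was 0.26, so it lay below that median. Its sign against NTG thus differed between the settings. The uncorrected signals on the L9 array, 453.7 (NTG) and 854.4 (TG), stood far above the blank means of 19.1 and 85.2. The part of signal in the turn of sign was not tested. Kir6.1 is known from smooth muscle and pericytes, whose 9 markers had a median of -0.09. Of the sulfonylurea receptors that complete the channel, Abcc8 was at -0.29 in L9 and -0.62 in L19, and Abcc9 at -0.23 and 0.10. Kcnj11, the Kir6.2 pore of heart muscle, was not analysed here.

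The two-pore channels had the lowest median of the currents with more than 1 measured gene, -0.28 over 10 of 12 genes, with 6 below NTG in both lines and 2 above. Kcnk3 encodes TASK-1, an acid-sensitive background channel of heart and pulmonary artery. Its signals were 68.1 (NTG) and 38.7 (TG) in L9 and 82.7 and 43.2 in L19. Both TG readings lay below both NTG readings, by more than the 0.28 on the log2 scale that separated the latter. TG was at 56.7% of NTG in L9 and 52.2% in L19, a mean log2 ratio of -0.88 ± 0.08 (SD, n = 2 lines), with an adjusted p of 0.086 in limma and 0.0035 in the trend setting. After normexp correction it was -0.34, inside 1.5-fold.

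Kcnk5, for TASK-2, a channel known from kidney, had signals of 77.8 (NTG) and 51.6 (TG) in L9 and 74.8 and 54.3 in L19, a log2 ratio of -0.53 ± 0.09 (SD, n = 2 lines), with an adjusted p of 0.10 in limma and 0.018 in the trend setting. Kcnk9 (TASK-3) was at -0.86 in L9 and -0.57 in L19, but its L19 reading was above the L9 control. The highest of the family was Kcnk18, a channel of sensory neurons, at 1.60 in L9 and 0.17 in L19. Its L9 control signal of 2.12 was barely above the limit, and the mean was -0.17 after normexp correction. Kcnk1 (TWIK-1) was above background in the NTG channel only on both arrays. In L19 it was at least 1.58-fold lower than NTG, and in L9 the bound gave no fold above 1.

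Of the calcium- and sodium-activated channels, 6 of 11 genes were measured, with a median of -0.23. Kcnn2, for the SK2 channel of atrial muscle, had signals of 67.0 (NTG) and 75.7 (TG) in L9 and 66.1 and 38.6 in L19. The NTG readings were nearly equal, and the lines lay on opposite sides, at 0.18 and -0.77, a gap of 0.95. Kcnmb1, the beta subunit of the large-conductance channel in smooth muscle, had 48.2 and 40.7 in L9 and 45.2 and 38.7 in L19, a log2 ratio of -0.24 ± 0.02 (SD, n = 2 lines). Its pore gene Kcnma1 was hardly above background. On the L9 array the uncorrected NTG signal was 19.2 against a limit of 20.4 and the TG signal 95.8 against 91.7, so TG was at least 3.79-fold higher, and on the L19 array both were above background with a log2 ratio of 1.54. Both lines were therefore past 1.5-fold on the high side, on signals that stood within a few units of the limits.

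**Figure D3:**
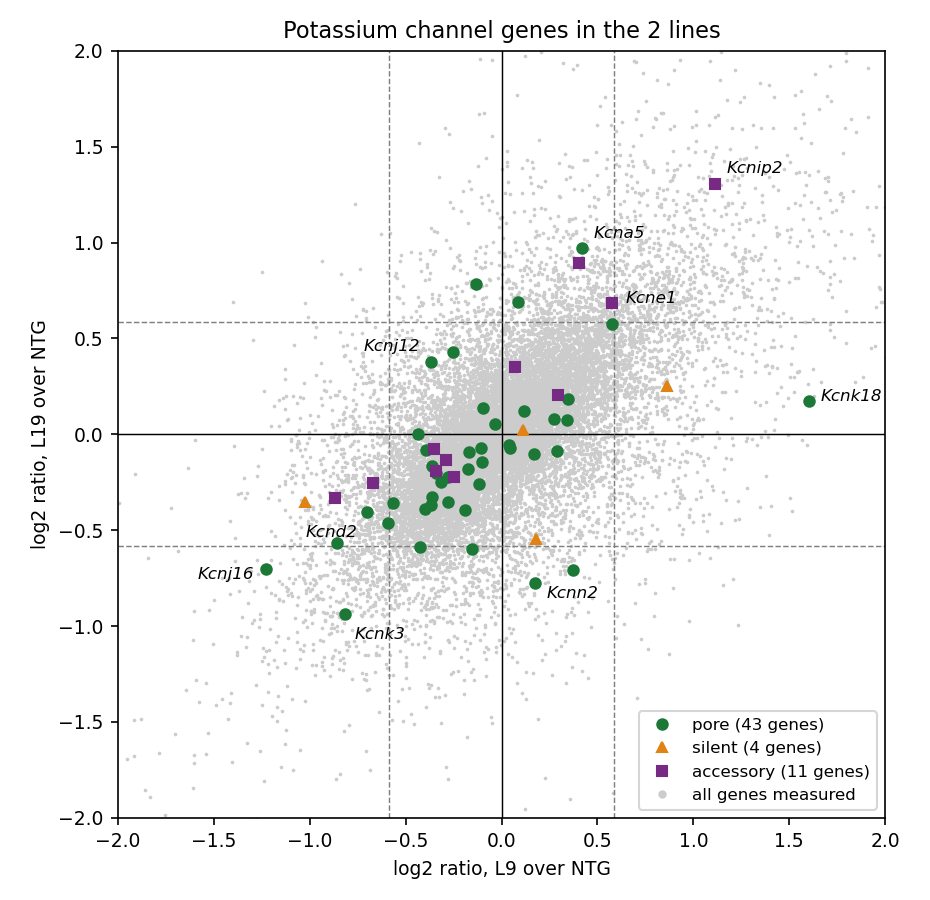
Log2 ratio of L9 over NTG (x axis) against L19 over NTG (y axis), with potassium channel genes coloured by role and all genes measured in grey. Dashed lines mark 1.5-fold, and 108 genes with a ratio beyond 2 in either direction lie outside the axes. Kcnip2 is in the upper right field, Kcnk3 and Kcnj16 are in the lower left one, and Kcnn2, Kcnj12 and Kcnk18 lie far from the diagonal. Both axes share the NTG RNA, counted as 1 sample.

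By role, the 43 measured pore genes had a median log2 ratio of -0.18, with 8 above NTG in both lines and 23 below. The 4 silent subunits had a median of -0.06. The 11 accessory genes split into 5 above (Kcnip2 and the 4 KCNE genes) and 6 below, with a median of -0.21. This median hung on which dim genes were counted. It was 0.21 among the accessory genes of the brighter 50%, 0.24 without the detection filter and -0.036 after normexp correction, whereas the pore median was -0.33 in the brighter 50% and -0.10 after normexp correction. The difference between roles was not tested. Of the 5 accessory genes above NTG, Kcnip2, Kcne1 and Kcne4 had a mean above it after normexp correction as well, and Kcne2 and Kcne3 did not.

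**Figure D4:**
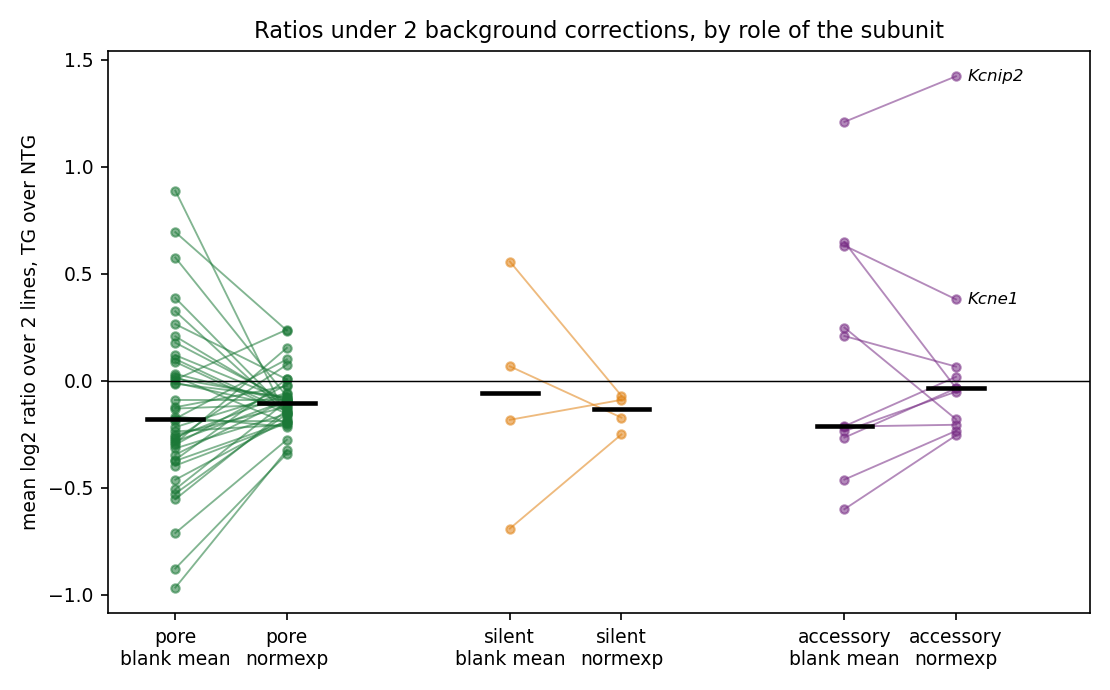
Mean log2 ratio of TG over NTG over the 2 lines (y axis) for each measured potassium channel gene under the blank-mean correction and under normexp with an offset of 50, joined by a line and grouped by role, with thick bars for medians. Kcnip2 stands apart at 1.21 and 1.42, and the pore genes draw toward 0, their median from -0.18 to -0.10.

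The remaining 19 genes had no ratio in both lines. Of these, 6 were measured in L19 only (Kcnab3, Kcnj14, Kcnk4, Kcnma1, Kcnmb2 and Kcnn4) and 13 in neither line. In 4 genes the NTG channel alone was above background on both arrays, and 2 genes (Kcnh7 and Kcnj15) were above background in no channel. The lowest scaled signal counted as detected was 1.96 (L9) and 1.89 (L19) for NTG and 4.54 and 4.39 for TG, so these counts do not show genes lost in TG hearts. Bounds and ratios disagreed in direction for Kcnab3, which was at least 1.32-fold lower in L9 and at a log2 ratio of 1.64 in L19. Kcnj14 was at least 2.59-fold lower in L9 and at -0.30 in L19, and Kcnk4 had a bound below NTG in L9 and was at -0.19 in L19. Kcnn4, the intermediate-conductance channel, was at 1.14 in L19 and gave no bound in L9.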

How the data were processed

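Gene expression was measured in TG and NTG hearts on 2 two-colour arrays. The authors deposited each spot's intensity per channel, not corrected or normalized, as read by 3D-Gene Extraction, whose version was not given in the sources used. Their deposited log2 ratios had a median of -2.9e-06 (L9) and -4.0e-05 (L19). Recomputing these settled the scale, centring and direction, Cy3 (TG) over Cy5 (NTG), since all but 1 shared ratio in each line lay within 0.001.

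Each channel was corrected by a mean over the 2736 blank spots, trimmed by 5% at either end, and a probe counted as detected above that mean plus 2 SD. Spots marked bad (9 gene spots in L9 and 3 in L19) were left out. Each array was scaled to a median ratio of 1, before which that median was 2.02 (L9) and 1.83 (L19). Printed signals are corrected and scaled. The brightest probe stood for a gene, named from the platform table (16631 of 23473 probes) through synonyms in RefSeq GRCm38.p6. The number of arrays limits the precision.

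Log2 ratios were tested in R 4.3.3 by limma 3.58.1 for a mean of 0, with Benjamini-Hochberg adjustment over 17482 genes. p-values measure only the spread between the lines. Where 1 channel was below background, a bound was formed against the lowest detected signal. The fold cutoff of 1.5 is that of the methods. The SD of the log2 difference between the 2 NTG readings was taken over 500 genes of similar signal. Alternatives were normexp with an offset of 50, loess, the deposited table, the upper 50% of signal, no detection filter, the mean over probes, each line left out, a 2-fold cutoff, and limma with a signal trend and robust estimation (the trend setting). In the normexp setting the offset was added before the channels were scaled, and the ratios were centred on their median afterwards. Simulated ratios served to test the limma step. The main setting called 0 of 251 changes of 4-fold and 31 of 241 of 8-fold, and the trend setting 171 and 203. Python 3.11.15, numpy 2.4.6 and pandas 2.3.3 were used.

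Genes named are those past 1.5-fold in the same direction in both lines, bounds included, and the channel subunits that textbooks assign to mouse heart muscle. Others were named after their values were seen. The members and lists were chosen with earlier results of these data known.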

Additional observations from a re-analysis of the deposited data

How the results depend on the processing

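Kcnip2, Kcnk3 and Kcnd2 kept their direction under each alternative run. Among the 18 genes that the naming rule gave with a ratio in both lines, normexp correction turned the sign of 3 (Kcna4, Kcnj2 and Kcnj8), and leaving out L19 turned that of Kcnj12 and Kcnn2. The count of channel genes more than 1.5-fold above NTG in both lines (1) was 2 after loess and 5 without the detection filter. The count more than 1.5-fold below (2) was 0 after normexp, 0 at a 2-fold cutoff and 1 in the brighter 50% of genes. With a single line, a looser criterion than both lines, 3 to 6 were above and 6 to 8 below. In the brighter 50% of all genes 352 of 8741 were past 1.5-fold above in both lines and 256 below. For the other settings the share of all genes is not given here, so those counts are not read against it. The median over channel genes (-0.18) was -0.10 after normexp and -0.28 in the brighter 50%, and -0.16 to -0.12 with a single line. The pore median (-0.18) was -0.10, -0.33 and -0.17 to -0.14 in the same order. The accessory median (-0.21) was -0.036 after normexp, and -0.25 to -0.076 with a single line. It turned to 0.21 in the brighter 50% and to 0.24 without the detection filter. limma called 0 genes of the array in the main setting, 3506 with the trend setting, 7617 after normexp and 2535 in the brighter 50%. After normexp it called 2 of the 58 channel genes higher and 13 lower, against 5328 and 2289 of 17482 genes. In the brighter 50% it called 2 of 14 channel genes higher and 5 lower, against 1249 and 1286 of 8741 genes. The split of channel genes above and below NTG in both lines was 15 and 30 in the main setting, 8 and 42 after normexp, and 11 and 31 after loess, against 35.5% and 38.4%, 45.1% and 39.5%, and 35.0% and 38.4% of all genes. The causes were not tested. Of the 58 channel genes, 44 were in the dimmer 50% of genes. Over all 58, normexp changed the sign of 21 mean ratios, 5 of them in the brighter 50%. The median of all genes after normexp was 0.26 in the brighter 50% and 0.02 over the array. Each ratio already pairs a TG with an NTG reading of the same array.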
